A study of Mus musculus with 8 samples.

Results

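Cholesterol and fatty acids are built from acetyl-CoA along separate branches, and the genes of both branches were followed here in bulge cells of mouse back skin with and without the histone methyltransferase G9a. The members were 34 listed genes of cholesterol synthesis, fatty acid synthesis, desaturation and elongation, found as the probe sets whose platform gene symbol is one of those names. Of these, 29 genes were found, with 57 probe sets, among 17097 genes and 45141 probe sets in all. The cholesterol branch held 15 of 17 listed genes, the fatty acid branch 12 of 14, and the control of both by sterol-regulated transcription factors (SREBP) 2 of 3. Acat2, Pmvk, Srebf1, Scd2 and Acsl1 were not analysed here.

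The arrays were 4 labelled G9a cKO, a conditional knockout, and 4 labelled G9a WT, and the mice of both groups were 15 weeks old. Both groups had been given DMBA (7,12-dimethylbenz[a]anthracene), a mutagen, at 0.25 mg/ml and TPA (12-O-tetradecanoylphorbol-13-acetate), a tumour promoter, at 0.02 mg/ml on the shaved back, both in acetone and in volumes of 200 µl. Treatment began at 8 weeks of age and was repeated each week for 6 weeks, so no untreated skin was compared. For the knockout's driver and deleted exons, the strain, the sex and the isolation of the bulge cells, the sources used here give nothing. Titles give the genotype of an animal and a replicate number, and do not say whether the replicates are separate animals. Each array was taken as a separate animal, and p-values measure the spread between animals only if that holds. Of the 2 probe sets of Ehmt2, which encodes G9a, 1460692_PM_at read 5.54 to 6.44 in cKO and 8.89 to 9.29 in WT (log2), while 1426888_PM_at read 8.39 to 8.43 and 8.40 to 8.42, and a probe set outside the deleted part would check nothing. The 10 measured markers of the bulge and of basal keratinocytes, among them Cd34, Krt15 and Lgr5, had a mean log2 level of 10.90 to 10.96 in cKO arrays and 10.95 to 11.02 in WT arrays. None passed limma's test, 7 lay below 0 and 2 had an unadjusted p under 0.05, in opposite directions. Of these 2, Krt15 read higher in cKO without overlap (log2 change 0.098, limma adjusted p = 0.202). The lowest p was that of Nfatc1, a bulge transcription factor, at 10.16 ± 0.14 in cKO and 10.50 ± 0.14 in WT without overlap (n = 4, limma adjusted p = 0.0566). Array medians lay within 5.87 to 5.95, and WT replicate 4 stood closest to the cKO arrays on the first principal component.

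As background, both branches start in the cytosol from acetyl-CoA that ATP citrate lyase makes. HMG-CoA synthase and the enzymes after it lead through mevalonate, isoprenoids and squalene to lanosterol and cholesterol, while acetyl-CoA carboxylase and fatty acid synthase make palmitate, which elongases lengthen and desaturases give double bonds. When sterols are low, SREBP proteins leave the endoplasmic reticulum, where INSIG proteins had held them, and switch on the genes of both branches. In skin, keratinocytes need these lipids for the barrier, and the sebaceous gland beside the bulge is specialised in making them.

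A single member passed limma's test: Fads1, which encodes the delta-5 desaturase of polyunsaturated fatty acids, rose 1.42-fold in cKO. Its neighbours Fads2, the delta-6 desaturase gene, and Fads3 read 1.41-fold and 1.27-fold higher in cKO without passing the test. No gene of the cholesterol branch passed the test, and the values farthest from 0 there were those of Hmgcs1 and Sqle, which read 1.39-fold and 1.27-fold lower in cKO. By limma at an adjusted p under 0.05 over all genes, 1 of 29 members was called higher and 0 lower, where 1.92% of all genes were called higher and 0.836% lower. At an unadjusted p under 0.05 the limma fit had 4 members higher and 3 lower in cKO, that is 24.1% of the members, where 13.7% of all genes lay under that p.

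The branch medians lay near 0. The median log2 change was -0.010 in the cholesterol branch, with 10 of 15 genes below 0, and -0.013 in the fatty acid branch, with 7 of 12 below 0. Over all genes tested it was 0.0027. Individual changes ran from -0.47 to 0.11 in the cholesterol branch and from -0.35 to 0.50 in the fatty acid branch. For 22 of the 29 members the 95% interval of the log2 change lay within 0.5 on either side of 0. In bulk samples a smaller share of cells that express a gene and less RNA of it per cell cannot be told apart.

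**Figure D1:**
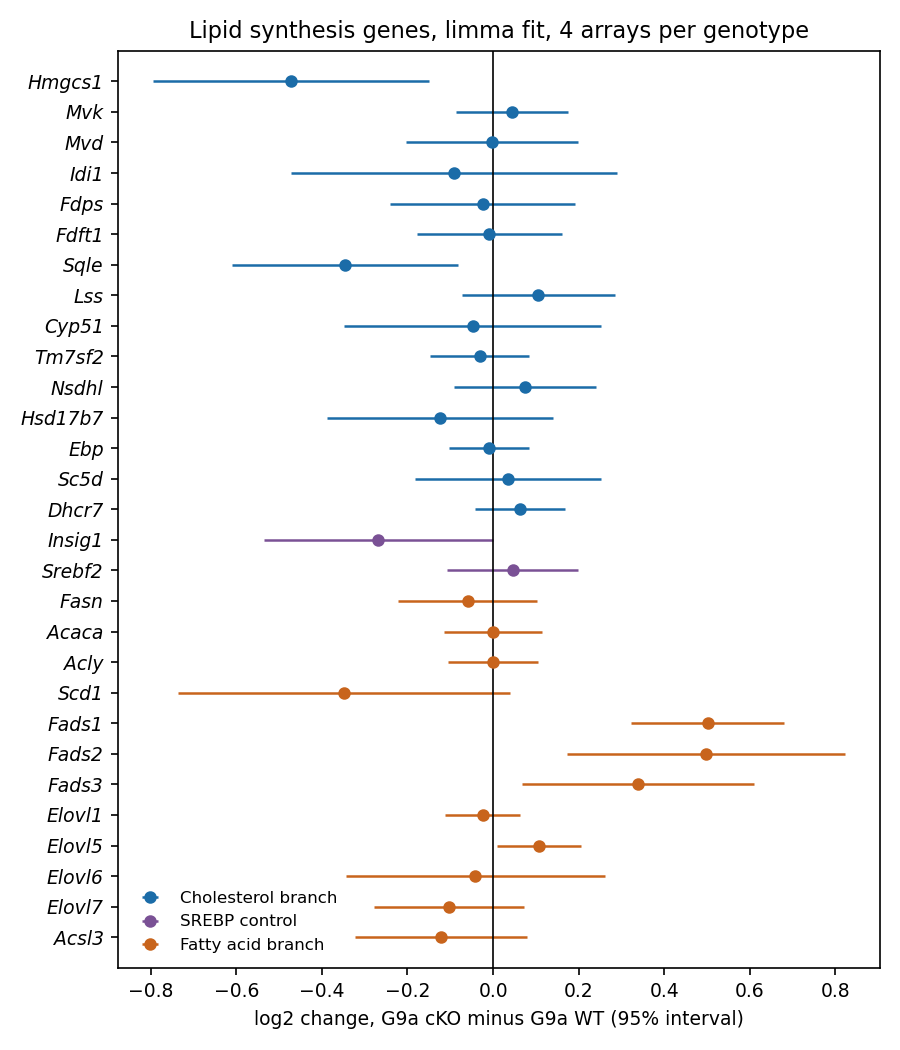
Log2 change (G9a cKO minus G9a WT, x axis) of each of the 29 measured member genes (y axis), with the 95% interval of the limma fit, 4 arrays per genotype, coloured by branch. The 3 Fads genes sit between 0.34 and 0.50, while most other intervals cross 0.

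Among the desaturases, Fads1 read 9.02, 8.99, 8.73 and 8.83 in cKO replicates 1 to 4 and 8.23, 8.42, 8.40 and 8.51 in the WT replicates (log2). All 4 cKO arrays lay above the highest WT array, a separation in this direction that 5.15% of all genes showed. The means were 8.89 ± 0.13 in cKO and 8.39 ± 0.12 in WT (SD, n = 4), a log2 change of 0.50 (SE 0.08, limma adjusted p = 0.00845). By exact permutation of the arrays, two-sided, p was 0.0286, which is the lowest that groups of 4 and 4 can reach. Leaving out any 1 of the 8 arrays gave log2 changes of 0.45 to 0.55, all of them past the threshold, and without WT replicate 4 it was 0.54 (limma adjusted p = 0.00640).

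Fads2, whose product takes the first desaturation step of linoleic and alpha-linolenic acid, read 7.50, 7.02, 6.75 and 7.02 in cKO and 6.32, 6.76, 6.65 and 6.56 in WT. The groups overlapped in cKO replicate 3 and WT replicate 2, and cKO replicate 1 stood highest. The log2 change was 0.50 (SE 0.15, 95% interval 0.17 to 0.82, limma adjusted p = 0.126). Without any 1 array it ran from 0.36 to 0.60, and the adjusted p of limma from 0.0705 to 0.262.

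Fads3, the third gene of the family, read 6.60, 6.69, 6.54 and 6.85 in cKO and 6.05, 6.61, 6.48 and 6.17 in WT. WT replicates 1, 3 and 4 lay below all cKO arrays, while WT replicate 2 lay among them. The log2 change was 0.34 (SE 0.12, 95% interval 0.07 to 0.61, limma adjusted p = 0.228).

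The further probe sets of the family pointed the same way. All 8 Fads probe sets had a log2 change above 0, from 0.11 to 0.60, and 7 of them an unadjusted limma p under 0.05. Of all genes, with 1 probe set each, 13.7% lay under that p. The 8 probe sets read 3 genes on the same arrays, so they are not independent of each other. Only the Fads1 probe set given above passed over all 45141 probe sets (limma adjusted p = 0.0109). The second Fads1 probe set read 7.11 ± 0.18 in cKO and 6.76 ± 0.20 in WT (n = 4, adjusted p of limma over all probe sets = 0.185). A second Fads2 probe set, 1443838_PM_x_at, read 6.30 ± 0.33 and 5.70 ± 0.24 (limma adjusted p over all probe sets = 0.111). Another, 1419031_PM_at, read 4.21 ± 0.05 and 4.05 ± 0.06, close to the bottom of the scale, with no overlap between the groups.

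**Figure D2:**
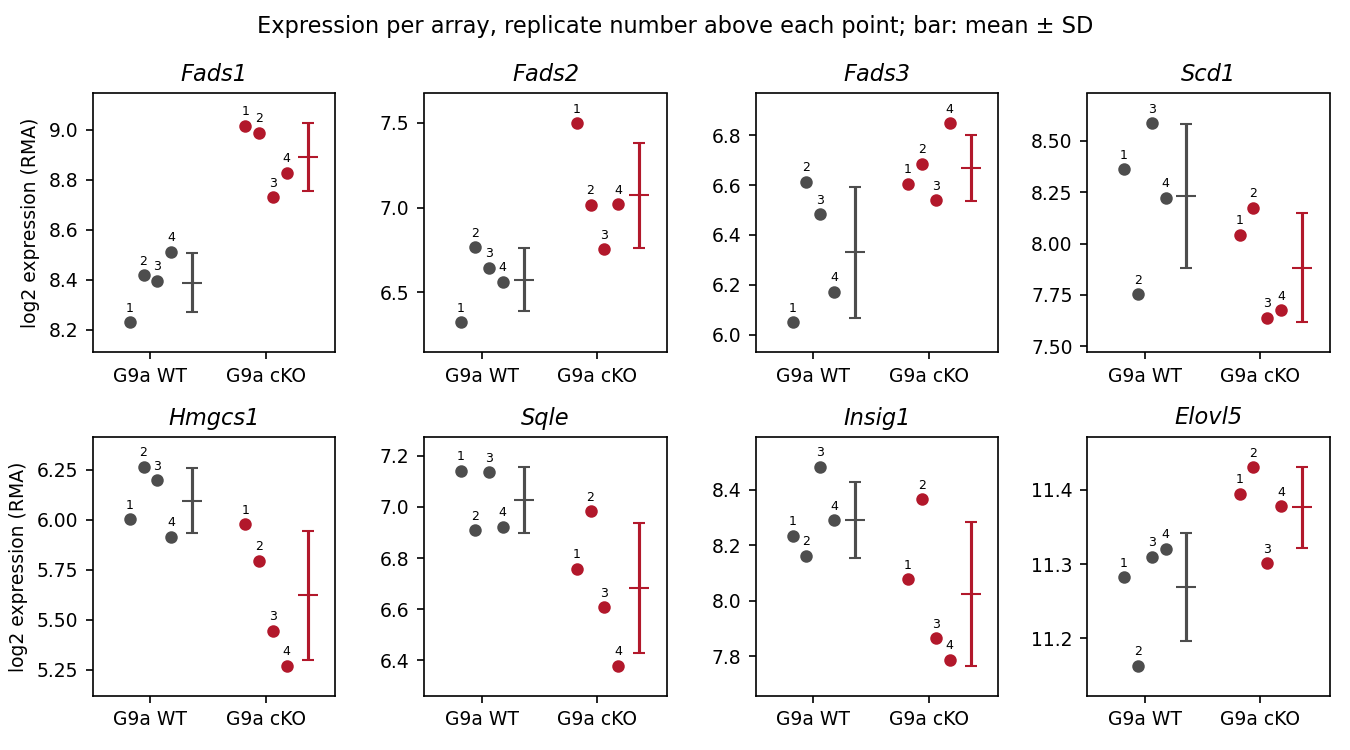
Log2 expression (y axis) of 8 member genes on each array, by genotype (x axis), with the replicate number above each point and the mean ± SD of 4 arrays beside them. The groups are apart in Fads1, whose cKO arrays all lie above 8.51, and overlap in the other 7 genes.

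The 3 Fads genes lie side by side on mouse chromosome 19. The genes around them were looked at after the Fads values had been seen. Of the 4 protein-coding genes before Fads3 and the 4 after Fads1 in chromosome order, 7 were measured, and none passed the test. The nearest, Rab3il1 on one side and Fen1 on the other, had log2 changes of 0.04 (SE 0.06) and 0.11 (SE 0.15). The largest difference against its error was that of Fth1, the ferritin heavy chain gene, at 11.93 in cKO against 11.82 in WT (0.0645 as limma's adjusted p). Myrf was not analysed here.

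**Figure D3:**
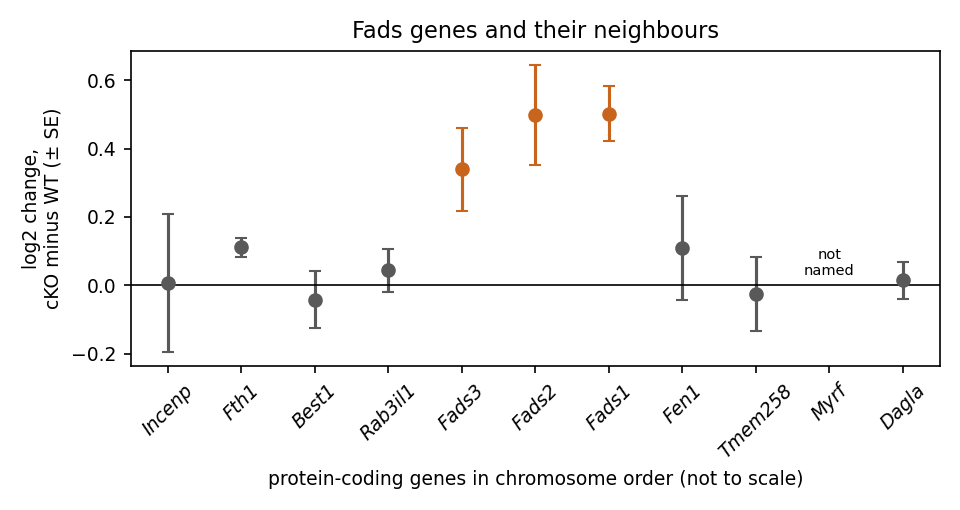
Log2 change (G9a cKO minus G9a WT, y axis, ± SE of the limma fit) of the Fads genes and the protein-coding genes around them, in chromosome order and not to scale (x axis). The Fads genes read 0.34 to 0.50, while the 7 measured neighbours lie between -0.04 and 0.11.

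The 250 bases before the start of Fads2 (chr19:10101504-10101753, minus strand) and of Fads3 (chr19:10041298-10041547, plus strand) are given because both genes read higher in cKO together with Fads1. They are RefSeq sequences of GRCm38.p6 and are written along the strand of the gene. Capitals mark exact matches, on either strand, to TCACNCCAC, the letters of a sterol regulatory element, to CCAAT, the box bound by NF-Y, and to CACGTG, an E-box.
Fads2: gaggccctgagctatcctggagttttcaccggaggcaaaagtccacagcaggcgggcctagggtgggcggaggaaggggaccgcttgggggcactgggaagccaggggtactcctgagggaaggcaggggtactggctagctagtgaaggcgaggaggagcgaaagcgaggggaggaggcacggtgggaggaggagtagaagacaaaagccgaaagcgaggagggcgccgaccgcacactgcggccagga
Fads3: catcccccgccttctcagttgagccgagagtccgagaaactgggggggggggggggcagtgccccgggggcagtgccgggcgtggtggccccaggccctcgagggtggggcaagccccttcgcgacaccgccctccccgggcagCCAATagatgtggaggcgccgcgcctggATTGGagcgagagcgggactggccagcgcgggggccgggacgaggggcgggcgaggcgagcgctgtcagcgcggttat
The Fads2 window held none of these letters, and the Fads3 window held CCAAT on the plus strand and its reverse complement, starting 106 and 78 bases before the start. CCAAT was present in 33.9% of all 32841 promoter windows of this length, and a match is a description of the sequence only.

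Scd1, the stearoyl-CoA desaturase that makes monounsaturated fatty acids and is abundant in sebaceous glands, read 8.04, 8.17, 7.64 and 7.68 in cKO and 8.36, 7.75, 8.59 and 8.22 in WT. The groups overlapped: cKO replicates 3 and 4 and WT replicate 2 were low, and WT replicates 1 and 3 were high. The log2 change was -0.35 (SE 0.17, 95% interval -0.74 to 0.04, limma adjusted p = 0.431), and a second probe set gave -0.40. The 10 measured sebaceous gland markers had mean log2 deviations of 0.060, 0.073, -0.067 and -0.15 in cKO replicates 1 to 4 and 0.069, -0.052, 0.13 and -0.062 in the WT replicates. Scd1, with a mean of 8.06 over the 8 arrays, and these markers lay on the same side of their means in cKO replicates 2, 3 and 4. The same held in WT replicates 1, 2 and 3, while cKO replicate 1 and WT replicate 4 had opposite sides. The part of sebaceous cells in the Scd1 values was not tested.

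The elongases were mixed. Elovl5, which elongates the products of the Fads desaturases, read 11.40, 11.43, 11.30 and 11.38 in cKO and 11.28, 11.16, 11.31 and 11.32 in WT. Only cKO replicate 3 lay within the WT range, but the difference was small, a log2 change of 0.11 (SE 0.04, limma adjusted p = 0.302), and its second probe set gave 0.15. Elovl7 read 8.28 ± 0.10 in cKO and 8.38 ± 0.14 in WT (n = 4, limma adjusted p = 0.660), and all 5 of its probe sets lay below 0, from -0.24 to -0.04. Elovl6, which carries palmitate to stearate, read 8.03 ± 0.21 and 8.07 ± 0.27 (limma adjusted p = 0.953). Another Elovl6 probe set, 1442656_PM_at, read 6.78 ± 0.05 and 6.96 ± 0.10 without overlap between the groups (limma adjusted p over all probe sets = 0.238), where 3.09% of all genes were separated in that direction. Elovl1, an elongase of very long saturated chains, read 10.36 ± 0.01 and 10.38 ± 0.06.

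For the enzymes that make palmitate, the difference between genotypes was narrowly bounded around 0. Acly, ATP citrate lyase, read 9.53 in both groups, with a 95% interval of the log2 change from -0.11 to 0.10. Its second probe set gave 0.04, so the pair differed in sign around 0. Acaca, acetyl-CoA carboxylase, read 9.38 ± 0.06 and 9.38 ± 0.07 (interval -0.11 to 0.11). Fasn, fatty acid synthase, read 8.27 ± 0.11 in cKO and 8.33 ± 0.11 in WT (interval -0.22 to 0.10). Acsl3, which activates long-chain fatty acids to acyl-CoA, read 8.52 ± 0.07 and 8.64 ± 0.19 (limma adjusted p = 0.647). Without the 3 Fads genes, 7 of the 9 other genes of the branch lay below 0, with a median log2 change of -0.042. Those 3 had the highest changes of the branch, so leaving them out could only lower the median. Of all genes, 51.5% lay above 0.

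At the entry of the cholesterol branch, Hmgcs1, the HMG-CoA synthase gene, read 5.98, 5.80, 5.44 and 5.27 in cKO and 6.00, 6.26, 6.20 and 5.92 in WT. Of the cKO arrays, only replicate 1 reached the WT range, and replicates 3 and 4 were lowest. The log2 change was -0.47 (SE 0.15, 95% interval -0.79 to -0.15, limma adjusted p = 0.147, exact permutation p = 0.0571). Without cKO replicate 1 it was -0.59 and passed the test (limma adjusted p = 0.0422), which is the only fit that left out an array in which a member was called lower. Over the fits without 1 array its adjusted p ran from 0.0422 to 0.341. Hmgcs1 was read by 1 probe set.

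Further along the mevalonate steps, Mvk, the mevalonate kinase gene, read 8.14 ± 0.06 in cKO and 8.10 ± 0.07 in WT, and Mvd, the decarboxylase gene, 6.24 in both. Idi1, the isomerase of the isoprenoid units, read 8.56 ± 0.35 and 8.65 ± 0.26, with a wide 95% interval of -0.47 to 0.29. Fdps, which makes farnesyl diphosphate, had a log2 change of -0.02 (interval -0.24 to 0.19). Fdft1, which joins farnesyl units to squalene, had one of -0.01 (interval -0.18 to 0.16).

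Sqle, squalene epoxidase, a rate-limiting enzyme, read 6.76, 6.98, 6.61 and 6.38 in cKO and 7.14, 6.91, 7.14 and 6.92 in WT. Replicate 2 was the only cKO array within the WT range. The log2 change was -0.35 (SE 0.12, 95% interval -0.61 to -0.08, limma adjusted p = 0.205), and in the fits without 1 array it ran from -0.45 to -0.24. Lss, which closes the rings to lanosterol, read 5.80, 5.93, 5.76 and 5.71 in cKO and 5.85, 5.55, 5.80 and 5.58 in WT, so the groups overlapped (log2 change 0.11, limma adjusted p = 0.661).

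After lanosterol the changes read close to 0, some with wide 95% intervals. Cyp51, the lanosterol demethylase, read 8.44 ± 0.28 in cKO and 8.49 ± 0.19 in WT (n = 4, interval -0.35 to 0.25). Its 3 probe sets gave log2 changes of -0.05, -0.07 and 0.01. The 3 probe sets of Hsd17b7, a sterol ketoreductase, also differed in sign, at -0.12 (interval -0.39 to 0.14), 0.03 and -0.03. Tm7sf2, a sterol reductase, had a log2 change of -0.03, Nsdhl, of the demethylation complex, one of 0.08, and Sc5d, a sterol desaturase, one of 0.04. Ebp, the sterol isomerase, had a 95% interval of -0.10 to 0.08. Dhcr7, which makes cholesterol in the last step of one route, read 9.93, 9.96, 9.91 and 9.95 in cKO and 9.85, 9.78, 9.89 and 9.98 in WT. Its cKO values lay within 0.05 of each other, and 3 of 4 WT arrays lay below all of them (log2 change 0.06, limma adjusted p = 0.657).

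Of the SREBP control genes, Insig1, which retains SREBP and is itself switched on by it, read 8.08, 8.36, 7.87 and 7.79 in cKO and 8.23, 8.16, 8.48 and 8.29 in WT. The lowest arrays were cKO replicates 3 and 4, as in Hmgcs1 and Sqle. In Insig1 cKO replicate 1 also lay below all WT arrays, while cKO replicate 2 lay among them. The log2 change was -0.27 (SE 0.12, limma adjusted p = 0.363). Srebf2, which encodes the SREBP of the cholesterol genes, read 8.27, 8.37, 8.28 and 8.17 in cKO and 8.24, 8.07, 8.33 and 8.26 in WT, with overlapping groups (log2 change 0.05, 95% interval -0.11 to 0.20).

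The upstream sequences of Hmgcs1 (chr13:119690101-119690350, plus strand) and Insig1 (chr5:28071162-28071411, plus strand) are shown because both genes were lowest in cKO replicates 3 and 4. They are again from RefSeq GRCm38.p6 with the same letters in capitals.
Hmgcs1: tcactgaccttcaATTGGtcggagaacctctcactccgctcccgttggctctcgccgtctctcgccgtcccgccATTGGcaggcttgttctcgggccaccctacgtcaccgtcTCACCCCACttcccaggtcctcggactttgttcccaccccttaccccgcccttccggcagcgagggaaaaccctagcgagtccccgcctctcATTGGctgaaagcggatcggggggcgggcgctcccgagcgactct
Insig1: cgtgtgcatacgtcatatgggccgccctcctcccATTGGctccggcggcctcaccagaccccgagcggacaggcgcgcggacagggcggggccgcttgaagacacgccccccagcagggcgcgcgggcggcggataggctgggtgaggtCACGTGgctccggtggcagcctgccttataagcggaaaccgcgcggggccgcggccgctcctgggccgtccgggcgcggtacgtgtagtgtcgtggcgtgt
The Hmgcs1 window held TCACNCCAC, 137 bases before the start, and CCAAT 3 times, each on the minus strand. That sterol element was found in 1 of 17 windows of the cholesterol branch, 1 of 13 of the fatty acid branch and 1.05% of all windows. CCAAT was found in 13 of the 17 cholesterol windows (76.5%), 6 of the 13 fatty acid windows (46.2%) and 33.9% of all windows. CACGTG, present 101 bases before the start of Insig1, was found in 3 of 17, 1 of 13 and 6.02% of all windows. Of the 5 windows of the SREBP control genes, 4 held CCAAT, 1 held CACGTG and 0 held the sterol element. Of the 34 listed genes 28 were matched, some with several windows, and Fads1, Fdft1, Fdps, Scd1, Scd2 and Sqle were not.

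Many cholesterol genes shared their highest and lowest array within a genotype. Among the cKO arrays, replicate 2 was the highest in 11 of the 15 cholesterol genes and replicate 4 the lowest in 11. Among the WT arrays, replicate 2 was the lowest in 10. The mean deviation of the branch was 0.013, 0.15, -0.094 and -0.18 in cKO replicates 1 to 4 and 0.053, -0.067, 0.092 and 0.033 in the WT replicates, so the cKO arrays lay on both sides of the WT arrays. Leaving out cKO replicate 4 moved the branch median to 0.039, and leaving out cKO replicate 2 moved it to -0.073. The fatty acid branch had mean deviations of 0.077, 0.11, -0.059 and -0.0033 in cKO and -0.034, -0.068, 0.046 and -0.068 in WT. In its 12 genes, cKO replicate 2 was the highest cKO array in 6 and cKO replicate 4 the lowest in 3. WT replicate 2 was the lowest WT array in 5. Counts of the highest and lowest array were not taken over all genes.

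**Figure D4:**
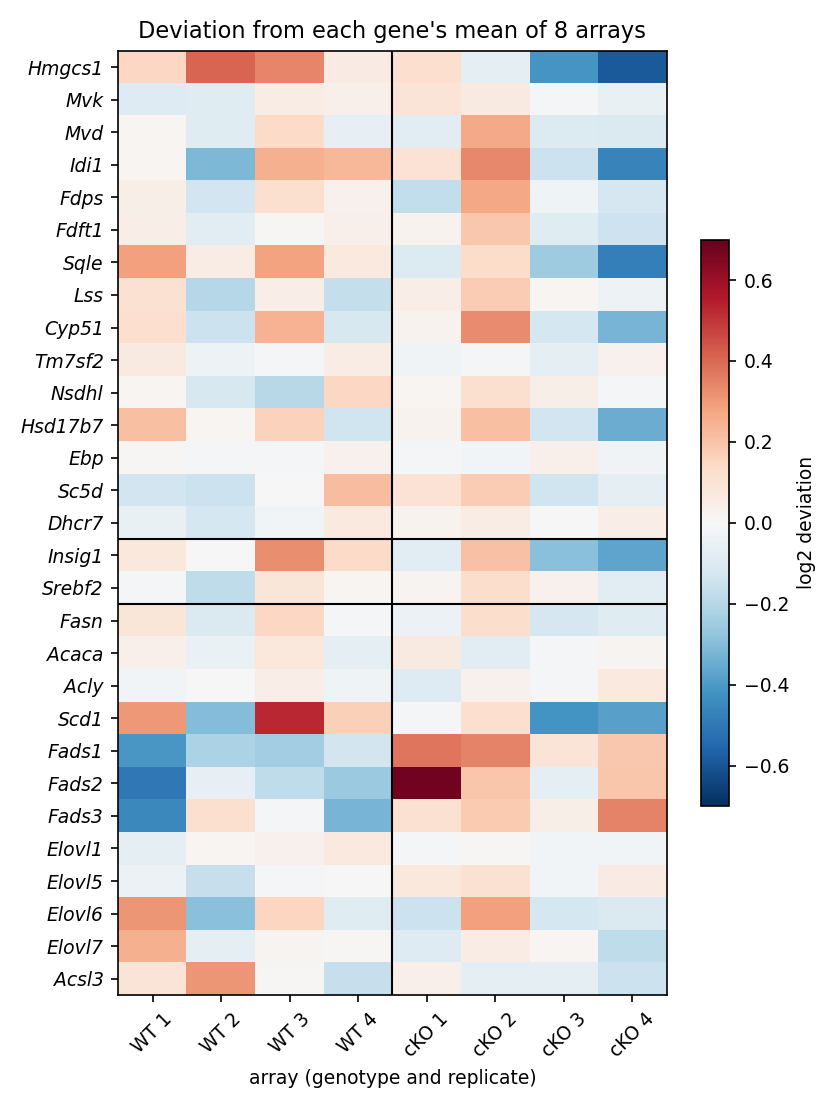
Log2 deviation of each array (x axis, WT then cKO) from the mean of 8 arrays for each member gene (y axis), by branch. Idi1, Cyp51, Sqle and Insig1 lie above their means in cKO replicate 2 and are lowest in cKO replicate 4. In Sqle and Insig1, WT replicate 3 reads higher than cKO replicate 2. Fads1 lies above its mean on all 4 cKO arrays.

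The mean of the sebaceous gland markers ranked the cKO arrays in the same order as the mean of the cholesterol branch. So did the means of the SREBP control genes and of 7 lipogenic regulators. Among the WT arrays none of these lists matched the order of the cholesterol branch. The SREBP control genes and the lipogenic regulators had replicates 1 and 4 the other way round, and the sebaceous markers replicates 2 and 4. None of the 10 measured passed limma's test (2 had an unadjusted p under 0.05), 5 lay above and 5 below 0, and the summed level, as a mean over the list, was 5.87 to 6.10 in cKO and 5.96 to 6.15 in WT. The largest difference in the list was that of Krt79, a keratin of the upper follicle and sebaceous duct, which read 8.38, 8.50, 7.96 and 7.29 in cKO and 9.08, 8.42, 8.95 and 8.39 in WT (limma adjusted p = 0.249). The lowest p was that of Dgat2, which makes triglycerides and went the other way, at 8.44, 8.73, 8.70 and 8.55 in cKO and 8.39, 8.01, 8.06 and 8.57 in WT (limma adjusted p = 0.214). Some of the markers were near the bottom of the scale, with Mc5r at 4.43 to 4.73 and Cidea at 3.85 to 4.05 over the 8 arrays. Others read higher, with Far2 at 5.61 to 6.54 and Plin2 at 9.20 to 9.61. The part of these cells in the cholesterol values was not tested.

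**Figure D5:**
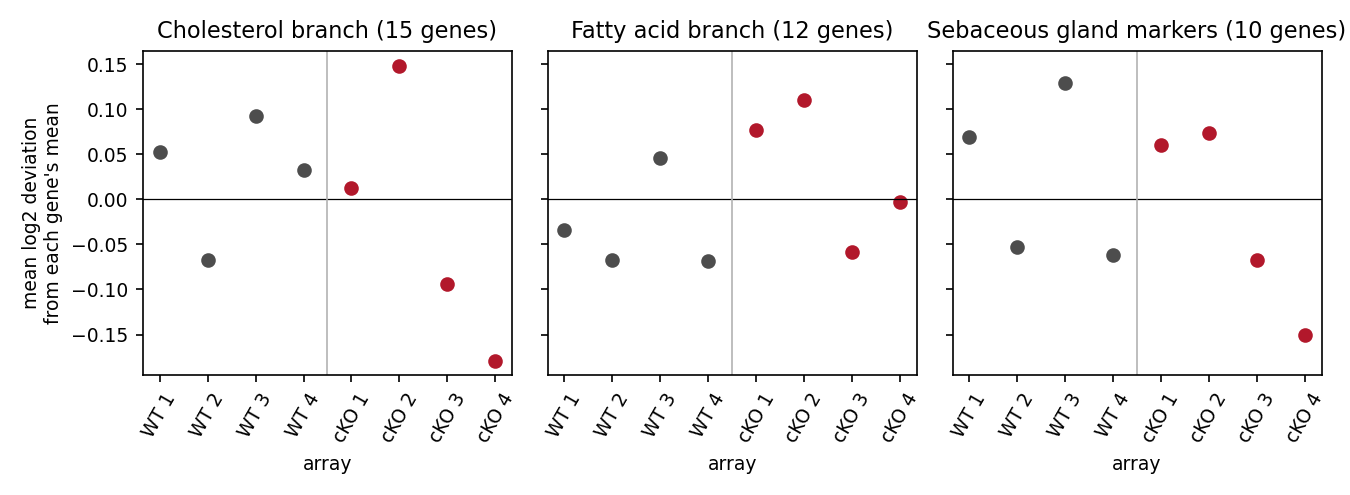
Mean log2 deviation from each gene's mean (y axis) on each array (x axis) for 15 cholesterol genes, 12 fatty acid genes and 10 sebaceous gland markers. The lowest point of the first and the third panel is cKO replicate 4, at -0.18 and -0.15.

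Of the other genes of lipid metabolism, 61 of 77 listed in 8 groups were measured, and 2 (3.28%) rose and none fell by limma, beside 1.92% and 0.836% of all genes. Under an unadjusted p of 0.05 there were 5 higher and 5 lower, or 16.4% of them, close to the 13.7% of all genes. Me1, malic enzyme, which supplies NADPH for fatty acid synthesis, rose 1.38-fold. It read 6.75, 6.86, 6.63 and 6.79 in cKO and 6.26, 6.20, 6.22 and 6.50 in WT without overlap (limma adjusted p = 0.0133), and its second probe set gave 0.52. The call was lost without cKO replicate 2 (limma adjusted p = 0.0542) and without WT replicate 3 (0.0522), with log2 changes of 0.43 and 0.44. Abcg1, a sterol exporter switched on by the liver X receptors, rose 1.34-fold, at 5.59, 5.64, 5.41 and 5.54 in cKO and 5.11, 4.98, 5.22 and 5.20 in WT, also without overlap (limma adjusted p = 0.00982). Its second probe set gave 0.09 (adjusted p of limma 0.513 over all probe sets). The mean of both gave a log2 change of 0.25 in place of 0.42, still past the threshold.

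Within these groups the other 8 genes of sterol uptake, efflux and storage did not pass. The lowest p among them was that of Ch25h, cholesterol 25-hydroxylase, at 5.24 ± 0.18 in WT and 5.01 ± 0.04 in cKO, without overlap (limma adjusted p = 0.234). None of 6 other sterol synthesis genes passed, with Ggps1, which makes geranylgeranyl diphosphate, at a log2 change of 0.13 (limma adjusted p = 0.436). None of 5 other genes of the SREBP machinery passed, with Mbtps2, the site-2 protease, at 0.14 (limma adjusted p = 0.628). None of 9 further genes of elongation and desaturation passed, with Hacd1, a hydroxyacyl-CoA dehydratase, at -0.27 (limma adjusted p = 0.149). None of 11 further acyl-CoA synthetase and lipid assembly genes passed, with Acsl4, which prefers arachidonic acid, at -0.32 (limma adjusted p = 0.153). The 7 lipogenic regulators, with Thrsp at 0.11, and the 8 genes of fatty acid oxidation, with Slc25a20, the carnitine carrier, at -0.07, held no call either.

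Markers of other cells that could carry lipid genes were given by their levels. Adipocyte markers had a list mean of 4.63 to 4.69 in cKO and 4.59 to 4.68 in WT, with Adipoq at 3.86 to 3.98, and none of 7 passed (lowest p Car3, limma adjusted p = 0.473). Markers of differentiated epidermis ranged from 6.21 to 6.44 and from 6.22 to 6.51, macrophage and monocyte markers from 4.49 to 4.61 and from 4.52 to 4.84, and 9 markers of other skin cells from 5.02 to 5.14 and from 5.02 to 5.12, with no call among them. The lowest p of these were those of Ivl, involucrin, at a log2 change of 0.31 (limma adjusted p = 0.166), Cd68, a macrophage glycoprotein, at -0.24 (0.165), and Acta1 at 0.05 (0.738). Of 8 fibroblast markers Col1a1 fell (log2 change -0.91, limma adjusted p = 0.0010) and Thy1 rose (0.57, limma adjusted p = 0.0251), both without overlap. Of all genes, 0.836% were called lower and 1.92% higher. The mean of the fibroblast list, which holds these opposite changes, was 5.19 to 5.23 in cKO and 5.19 to 5.28 in WT. Without WT replicate 4, limma called 1 member higher and 0 lower, and the branch medians were -0.018 for cholesterol and -0.016 for fatty acids.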

How the data were processed

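Expression was measured on 8 Affymetrix arrays, each taken as 1 animal. Per the labels' protocols, RNA was extracted with TRizol, and 25 ng were amplified over 17 cycles. The authors deposited log2 expression values, 1 per probe set and array. RMA is named in the submitters' processing notes, with no settings. RMA compresses differences at low signal, and values ran from 3.09 to 13.1. There were 0 value columns of other samples.

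Of 45141 probe sets, 28898 had 1 gene symbol in the platform annotation, 551 had several and were not named, and 15692 had none here. The probe set with the highest mean stood for a gene. G9a cKO was compared with G9a WT by limma 3.58.1 in R 4.3.3 (eBayes with trend, two-sided, no covariates) over 17097 genes, with Benjamini-Hochberg adjustment and a threshold of 0.05. The fit was tested on simulated data. Single genes also had exact permutation tests. Errors are SD over 4 arrays unless named. The number of arrays limits the precision.

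The members, lists and tests were chosen with earlier results of these data known. Described singly were members past the threshold, the 4 with the lowest p of each branch, SREBP control genes and members whose probe sets differ in sign. Of the other pathway lists the rule names genes past the threshold or the 1 with the lowest p. Scd1, Elovl6, Elovl7, Krt79, the neighbours of the Fads genes and the other values of single markers were added after their values were seen. Promoter windows are 250 bases before a start, from RefSeq. Alternatives covered normalization, dim probe sets, probe set choice, variance model, weighted arrays, a block on the replicate number and leaving out each array. Figures used matplotlib 3.10.9.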

Additional observations from a re-analysis of the deposited data

Results flagged for a closer look

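Among 58 groups of 4 arrays, 2 for each of the 29 members, 2 held an array far from the others by Dixon's criterion, which flags about 1 in 20 groups by chance. Mvd read 6.51 in cKO replicate 2 and 6.14 to 6.17 in the other cKO arrays. Elovl6 read 8.33 in cKO replicate 2 and 7.89 to 7.95 in the other cKO arrays.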

How the results depend on the processing

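Of 464 member values recomputed over 16 alternatives, 463 kept their side of the threshold and 1 did not, Hmgcs1 without cKO replicate 1, with no called value changing sign. The count of members called higher was 1 in all 15 alternatives that test 1 value per gene. The count called lower was 0 in 14 of them and ran from 0 to 1 over the fits without 1 array. The median log2 change ran from -0.073 to 0.039 in the cholesterol branch and from -0.022 to 0.0082 in the fatty acid branch, within the spread between arrays. Over all genes the calls were 329 higher and 143 lower. They were 191 and 77 with the replicate number as a block, and 483 and 249 with array weights. Leaving out a WT array gave 226 and 78 (replicate 1) or 279 and 112 (replicate 2). For WT replicates 3 and 4 the calls were 195 and 67 (replicate 3) and 502 and 294 (replicate 4). Leaving out a cKO array gave 352 and 151 (replicate 1) or 190 and 68 (replicate 2). For cKO replicates 3 and 4 the calls were 256 and 74 (replicate 3) and 225 and 71 (replicate 4). Arrays that share a replicate number did not deviate together (correlations of -0.53 to 0.028 across genes, none of the 4 cKO arrays closest to its own number), so the numbers were not taken as pairs. Under the replicate block the members called were 1 higher and 0 lower, the branch medians stayed at -0.010 and -0.013, and Abcg1 had a limma adjusted p of 0.0716. Probe sets near background limit what can be seen in dim genes. The cause of these shifts was not tested.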
